A study of Mus musculus with 6 samples.

Results

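The 10 transcripts of the core circadian clock were described in the mouse thoracic aorta: Arntl (also named Bmal1), Clock, Npas2, Per1, Per2, Per3, Cry1, Cry2, Nr1d1 and Nr1d2. They were found by gene identifier, 10 of 10 matched, among the 52636 genes in the table. They were selected on the measured difference between the 2 groups in these libraries, so their values in the groups are given below as a description. Calls from the fit over all genes are counted for them without a p-value and support nothing further. Bulk RNA sequencing covered 6 libraries from male mice at 12 weeks of age. The 4 WT libraries came from untreated C57BL/6J mice. The 2 KO libraries came from mice with Tgfbr1f/f and Tgfbr2f/f, the floxed genes of both TGF-β receptors, together with Myh11-CreERT2, a tamoxifen-activated Cre driven by a smooth muscle promoter, and mT/mG, a fluorescent reporter of recombination. Tamoxifen was given to the KO mice daily (2 mg) on 5 days, starting at 11 weeks. WT and KO therefore differed in each of these alleles and in tamoxifen, and the parts of genotype, reporter and drug cannot be told apart. The tissue was the excised aorta, taken from above the root down to the diaphragm. Cells other than smooth muscle, which lack active Cre, were therefore included. The hour of collection, the light cycle and the day of dissection are not given in the sources used here.

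The circadian clock is a transcriptional feedback loop that runs with a period of about a day in nearly every cell, vascular smooth muscle and endothelium included. BMAL1, encoded by Arntl, pairs with CLOCK or NPAS2 and activates genes through E-box elements, among them the Per, Cry and Nr1d genes. PER and CRY proteins return to the nucleus and inhibit the activator pair, while the nuclear receptors REV-ERBα and REV-ERBβ, encoded by Nr1d1 and Nr1d2, repress Arntl, Clock and Npas2 through ROR elements. Transcripts of Arntl and Npas2 therefore peak at an opposite time of day from those of Nr1d1 and the Per genes in most tissues. In arteries the clock is known for daily rhythms of tone and blood pressure.

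The gene starts were searched for the letters of regulatory elements of this loop. The RefSeq promoter table (GRCm38.p6) held 13 windows, from 250 bases before to 50 bases after a start, for 9 of the 10 genes, and Per2 was not matched. Both strands were searched for an E-box (CACGTG), an E-box variant (CACGTT), a D-box (TTATGTAA, bound by DBP, TEF, HLF and NFIL3), a ROR element (bound by ROR and REV-ERB proteins) and a cAMP response element (TGACGTCA). The E-box and its variant differ in the last base, and their matches cannot overlap. A match describes letters only. The E-box was found in the windows of Per1 and Cry1 and in 7.15% of all 32851 windows of the same length. The E-box variant was found for Cry1, Cry2 and Nr1d1 and in 4.68% of all windows. The D-box was found for Per3, in 2 copies, and in 0.938% of all windows. The ROR element was found for Arntl and in 0.219% of all windows. The cAMP response element was found for 0 of the 9 genes and in 1.79% of all windows. No match was found for Clock, Npas2 or Nr1d2. The stretches below, 5′ to 3′ on the strand of the gene, are shown because they hold matches to the E-box, its variant, the D-box or the ROR element. Capitals mark the matches. In Cry1 the first match is the variant read on the opposite strand and the second is the E-box.
Per1, chr11:69098739-69098838, plus strand, from position -210: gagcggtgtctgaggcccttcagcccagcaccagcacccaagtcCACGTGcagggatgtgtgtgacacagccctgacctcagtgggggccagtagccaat
Cry1, chr10:85185075-85185174, minus strand, from position -120: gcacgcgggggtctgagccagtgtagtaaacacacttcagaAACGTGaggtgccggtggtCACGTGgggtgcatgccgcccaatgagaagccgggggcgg
Per3, chr4:151044796-151044895, minus strand, from position -230: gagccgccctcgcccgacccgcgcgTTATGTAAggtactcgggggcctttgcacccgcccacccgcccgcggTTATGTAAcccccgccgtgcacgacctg
Arntl, chr7:113207528-113207557, plus strand, from position 18: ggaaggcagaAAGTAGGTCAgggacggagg
Positions count from the RefSeq start, which for Arntl is the later of 2. In GENCODE M21 the Arntl stretch lies in an exon of Arntl, the Per1 stretch inside Per1 but in no exon, the Per3 stretch upstream of Per3 within the span of Camta1 and in no exon, and the Cry1 stretch in no gene.

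Total counts ran from 21807734 to 25801352 in the WT libraries and were 28860598 in KO-1 and 19650983 in KO-2. The targeted genes were not lower as whole-gene counts: Tgfbr1 had normalized counts of 3858 to 5420 in WT, 5780 in KO-1 and 4568 in KO-2. Tgfbr2 had 5327 to 7042 in WT, 5784 in KO-1 and 5937 in KO-2. Since undeleted exons and cells that lack Cre add to such counts, the label is not checked by them, and KO below means the libraries labelled KO. Smooth muscle markers defined the tissue in every library, with a summed normalized count of 1004215 to 1186978 in WT, 984215 in KO-1 and 1174061 in KO-2. DESeq2 called 0 of these 9 markers (5 at an unadjusted p under 0.05, 0 called by edgeR). Summed markers of several other cell types were higher in both KO libraries, and over all genes tested 3.54% were called higher. Summed endothelial markers (3 of 8 called higher) were 12730 to 22887 in WT, 32431 in KO-1 and 31378 in KO-2. Summed macrophage markers (4 of 8 called higher) were 8355 to 10152 in WT, 14372 in KO-1 and 16588 in KO-2. Summed mesothelial markers (5 of 5 called higher) were 206.5 to 408.4 in WT, 848.3 in KO-1 and 2208 in KO-2. In further lists the KO libraries also stood apart from each other. Summed cardiac muscle markers (4 of 7 called higher) were 2946 to 4172 in WT, 27159 in KO-1 and 4087 in KO-2. Summed brown adipocyte markers (4 of 6 called higher) were 475.1 to 648.1 in WT, 843.8 in KO-1 and 11168 in KO-2. Summed white adipocyte markers (2 of 6 called higher) were 1187 to 2948 in WT, 3238 in KO-1 and 16505 in KO-2. Red blood cell markers (4 of 5 called higher) were 859.3 to 5990 in WT, 11076 in KO-1 and 61684 in KO-2. None of the markers of these 7 lists was at 0 in all libraries. In the remaining lists neither DESeq2 nor edgeR called a marker: fibroblast (0 of 8), lymphocyte (0 of 6), Schwann cell (0 of 5) and skeletal muscle (0 of 6). At an unadjusted p under 0.05 in DESeq2 these lists held 4, 2, 2 and 1 markers, and 2 fibroblast markers passed the adjusted p, both higher. Summed fibroblast markers were 200597 to 220546 in WT, 231255 in KO-1 and 241104 in KO-2. In the same order, lymphocyte sums were 17.8 to 64.8, 66.0 and 281.5, and Schwann cell sums 298.8 to 483.3, 637.4 and 510.1. Skeletal muscle sums were 171.2 to 237.3, 672.3 and 190.5, with KO-2 within the WT range. Of the skeletal muscle markers, Myh4 and Myh1 had at most 3 counts in every library. The mitochondrial share of counts was 2.62% to 4.44% in WT libraries, 3.38% in KO-1 and 11.7% in KO-2. The part of these cells and of mitochondrial RNA in the clock values below was not tested, and each clock value is therefore given for KO-1 and KO-2 separately.

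In the KO libraries the activators were higher and most of the repressors lower than in WT. Of the 10 genes, 2 were called higher (Arntl and Npas2) and 4 lower (Per1, Per2, Per3 and Cry2), where called means a DESeq2 adjusted p under 0.05 and a change above 2-fold. Over all genes tested the shares were 3.54% called higher and 2.1% called lower, 5.64% in all. The KO and WT libraries did not overlap in 8 of the 10 genes, 3 with KO above WT and 5 with KO below, against 34.3% of all genes tested (17.9% above and 16.4% below). By the adjusted p alone, 3 genes were higher (Clock as well) and 5 lower (Nr1d2 as well), 8 in all, beside 5.71%, 4.69% and 10.4% of all genes tested. edgeR called the same 6 of the 10 genes as DESeq2, and 3.93% of all genes it tested. Since this comparison chose the genes, nothing is read from these counts. The median log2 fold change of the 10 genes was -0.79, beside 0.01 over all 17070 genes tested. In whole tissue, fewer cells of a type and less RNA per cell cannot be told apart. Each library samples 1 moment of a daily curve, so a level here is not a mean over the day.

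**Figure D1:**
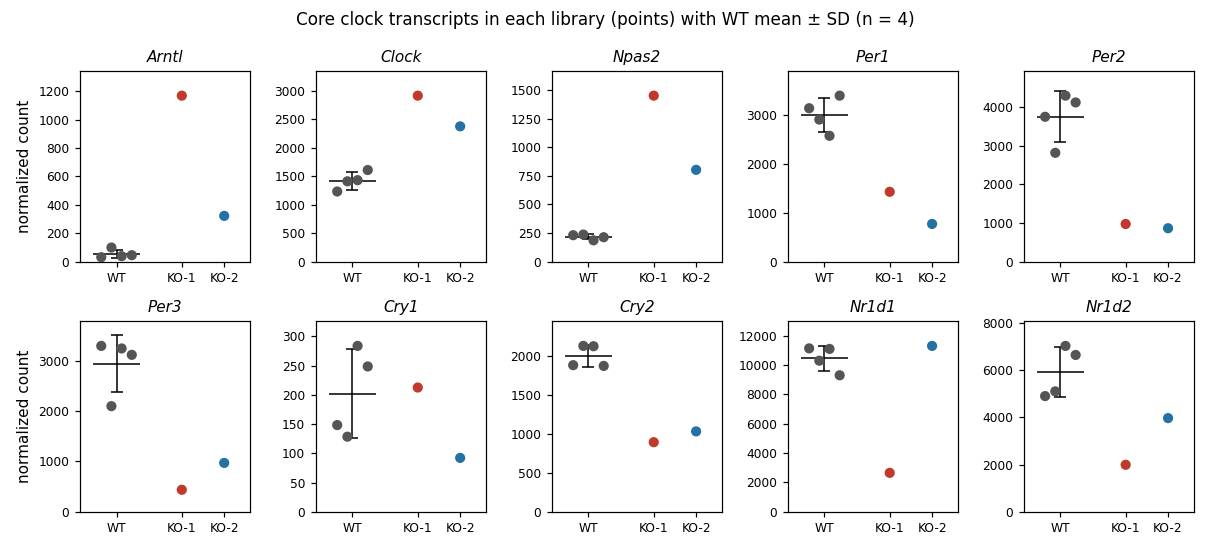
Normalized counts of the 10 core clock genes, 1 panel a gene, with the y axis starting at 0. Grey points are the 4 WT libraries with their mean and SD, red is KO-1 and blue is KO-2; Arntl, Clock and Npas2 lie above all WT libraries in both KO libraries, whereas Nr1d1 is 2654 in KO-1 and 11310 in KO-2.

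Among the activators, Arntl (ENSMUSG00000055116.8, chr7:113207465-113314126, plus strand, GRCm38) differed most. In WT-1 to WT-4 it had normalized counts of 30.8, 98.8, 37.9 and 44.9, against 1169 in KO-1 and 322.0 in KO-2. Both KO libraries lay above every WT library, and the highest WT value was 3.21 times the lowest. The raw counts behind the WT values were 28 to 110, so WT Arntl was measured on few reads, whereas KO-1 and KO-2 held 1541 and 262. On the log2 scale the difference was 3.81, with 0.50 as its standard error (SE), or 14.0-fold, from a WT mean of 53.1 ± 31.0 (SD, n = 4). Without KO-1 it was 2.60, and without KO-2 it was 4.47.

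Npas2 (ENSMUSG00000026077.15, chr1:39193731-39363236, plus strand), the partner that can stand in for CLOCK, was also highest in KO-1, followed by KO-2. In WT-1 to WT-4 it had normalized counts of 230.7, 236.2, 185.7 and 213.0, against 1452 in KO-1 and 802.6 in KO-2. WT libraries were close together, at 216.4 ± 22.7 (SD, n = 4), and both KO libraries were far above them. The KO level was 5.21-fold higher (log2 fold change 2.38, SE 0.27), and it was 1.89 without KO-1.

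Clock (ENSMUSG00000029238.11, chr5:76209868-76304792, minus strand), the usual partner of BMAL1, differed less. It had 1229, 1408, 1428 and 1606 normalized counts in WT-1 to WT-4, 2911 in KO-1 and 2372 in KO-2. The groups did not overlap, and the log2 fold change of 0.90 (SE 0.19), or 1.86-fold, stayed under the 2-fold limit. It was called in 1 of 13 alternative settings, the one without KO-2.

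All Per genes, which encode the PER repressors, were lower in both KO libraries. Per2 (ENSMUSG00000055866.9, chr1:91415982-91459324, minus strand) had normalized counts of 3749, 2816, 4296 and 4120 in WT-1 to WT-4, 972.8 in KO-1 and 862.9 in KO-2. The KO libraries nearly matched each other, and both were below every WT library. Per2 was 4.08-fold lower in KO (log2 fold change -2.03, SE 0.21), a value that ran from -2.14 to -1.83 over the 13 alternatives.

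Per3 (ENSMUSG00000028957.12, chr4:151003652-151044665, minus strand), which has D-box matches in the stretch printed above, had 3292, 2096, 3241 and 3115 in WT-1 to WT-4, 437.1 in KO-1 and 969.8 in KO-2. WT-2 was the lowest WT library and still above both KO libraries. Per3 was 4.18-fold lower in KO (log2 fold change -2.06, SE 0.30), and the change was -2.74 without KO-2.

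Per1 (ENSMUSG00000020893.17, chr11:69095217-69109960, plus strand), also an immediate target of glucocorticoid and cAMP signaling, had 3140, 2908, 2575 and 3398 in WT-1 to WT-4, 1429 in KO-1 and 770.7 in KO-2. KO-2 was the lower of the KO libraries here, the opposite order from Per3. Per1 was 2.73-fold lower in KO (log2 fold change -1.45, SE 0.25), and the change was -1.96 without KO-1.

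The Cry genes, which encode the cryptochrome repressors, differed from each other. Cry2 (ENSMUSG00000068742.11, chr2:92403646-92434043, minus strand) had normalized counts of 1883, 2130, 2126 and 1873 in WT-1 to WT-4, 893.8 in KO-1 and 1032 in KO-2. Its WT libraries were the closest together of the 10 genes on the log2 scale (SD 0.10), and the groups did not overlap. The log2 fold change of -1.06 (SE 0.17), or 2.08-fold lower, lay near the 2-fold limit. Cry2 was called in 11 of 13 alternatives, and was -0.96 with total counts outside mitochondrial genes as the scale and -0.95 without KO-1, where it was not called.

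Cry1 (ENSMUSG00000020038.10, chr10:85131700-85185064, minus strand) had 148.3, 128.4, 283.6 and 248.5 in WT-1 to WT-4, 212.5 in KO-1 and 92.2 in KO-2. KO-1 fell within the WT range and KO-2 below it. Its log2 fold change was -0.40 with an SE of 0.42. It was not called in any of the 13 alternatives, and its sign turned to 0.08 without KO-2. A fall or a rise of Cry1 could not be told from the spread between libraries.

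Of the 10 genes, Nr1d1, which encodes a REV-ERB receptor, was the one in which the KO libraries parted most. Nr1d1 (ENSMUSG00000020889.11, chr11:98767932-98775333, minus strand) had 11142, 10302, 11106 and 9307 in WT-1 to WT-4, 2654 in KO-1 and 11310 in KO-2. KO-1 was far below every WT library, and KO-2 was slightly above the highest of them. The log2 fold change of -0.58 (SE 0.60) averages these unlike values, and it was -1.97 without KO-2 and 0.11 without KO-1. Nr1d1 shares 263 bases of exon, 8.55% of its exon length, with Thra on the opposite strand, and reads there could not be told apart without strand. Thra had 6176 to 7221 normalized counts in WT, 7199 in KO-1 and 6548 in KO-2, so that KO-1 was within its WT range.

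Nr1d2 (ENSMUSG00000021775.11, chr14:18204054-18239127, minus strand) had 4908, 5108, 7036 and 6652 in WT-1 to WT-4, 1994 in KO-1 and 3975 in KO-2. Both KO libraries were below WT, and KO-1 was the lower, as for Nr1d1. The log2 fold change of -0.99 (SE 0.27), or 1.99-fold lower, fell just short of the 2-fold limit, and Cry2 at 2.08-fold lower passed it. Nr1d2 was called in 3 of 13 alternatives (without WT-1, without WT-2 and without KO-2, the last at -1.56).

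**Figure D2:**
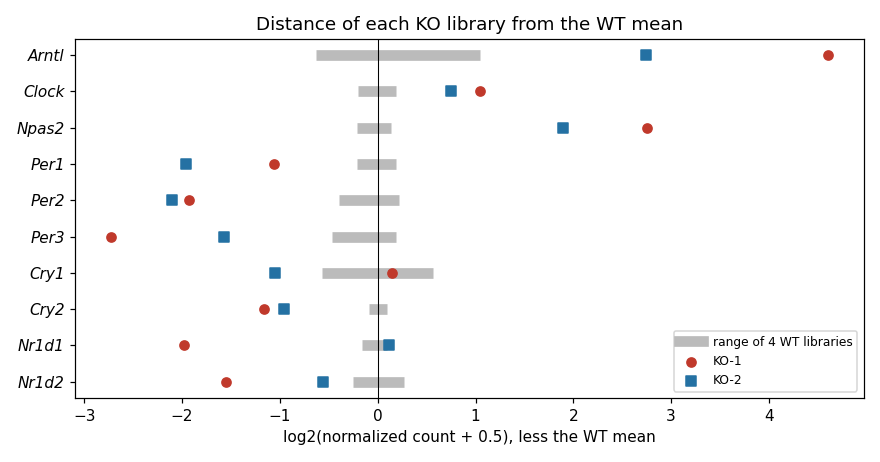
Log2(normalized count + 0.5) of each KO library less the WT mean for the 10 core clock genes; grey bars span the 4 WT libraries, red circles are KO-1 and blue squares KO-2. KO-1 lies farther from the WT mean than KO-2 in 7 of 10 genes, and Nr1d1 differs most between them (-1.98 in KO-1 and 0.12 in KO-2).

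The distance of each KO library from the WT mean, on the scale log2(normalized count + 0.5), put KO-1 farther out in 7 of the 10 genes and KO-2 in 3 (Per1, Per2 and Cry1). Both KO libraries lay on the same side of the WT mean in 8 of 10 genes, with Cry1 and Nr1d1 as the exceptions. Arntl was 4.60 above WT in KO-1 and 2.74 in KO-2, and Nr1d2 was -1.55 and -0.56. The absolute log2 difference between KO-1 and KO-2 ran from 0.17 in Per2 to 2.09 in Nr1d1, with a median of 0.94, beside 0.29 over the 11435 genes tested with a mean count of at least 100. The KO libraries differed by more than 2-fold in 4 of the 10 genes (Arntl, Per3, Cry1 and Nr1d1) and in 6.11% of those 11435 genes. Arntl was 3.63 times and Cry1 2.30 times as high in KO-1 as in KO-2, whereas Nr1d1 was 4.26 times and Per3 2.22 times as high in KO-2. The KO libraries also differed in cardiac, adipocyte and red blood cell markers and in mitochondrial RNA, as given above.

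Within WT, the spread differed between the genes. The SD of log2 normalized counts over the 4 WT libraries had a median of 0.22 for the clock genes. This median was 0.23 for all 17070 genes tested and 0.17 for the 11435 with a mean count of at least 100. Among the clock genes the SD ran from 0.10 in Cry2 to 0.73 in Arntl. The WT libraries spanned more than 2-fold in Arntl (3.21-fold) and Cry1 (2.21-fold), 2 of 10 genes, and in 7.73% of the 11435. Arntl, with a WT mean of 53.1, reached a mean count of 100 only through the KO libraries. WT-2, the library highest in Arntl, was also the lowest in Per2, Per3 and Cry1.

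**Figure D3:**
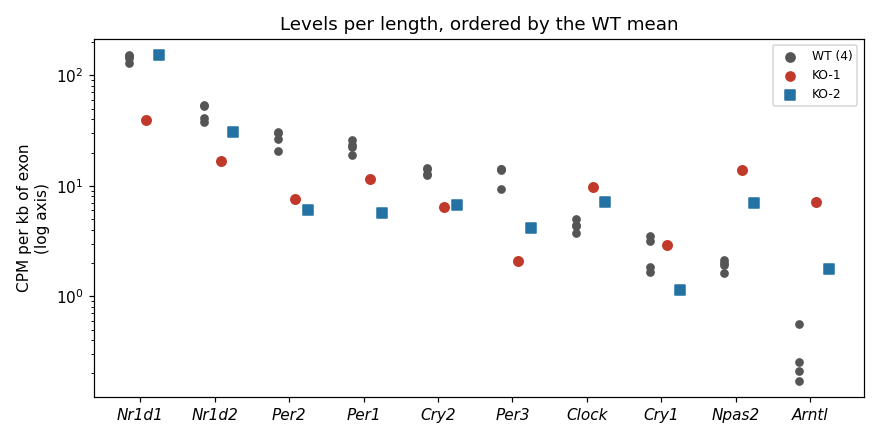
Levels of the 10 core clock genes in CPM per kilobase (kb) of exon, on a log axis, ordered by the WT mean. Grey points are the 4 WT libraries, red circles KO-1 and blue squares KO-2; WT means run from 144.0 for Nr1d1 to 0.301 for Arntl, and Npas2 and Arntl stand at 13.8 and 7.10 in KO-1.

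Levels can be compared between genes only per length, here as CPM (counts scaled to the total count of the library) per kilobase of exon. In WT, Nr1d1 was highest (144.0 ± 10.1, SD, n = 4), followed by Nr1d2 (46.4). Per2 (27.1) and Per1 (22.6) came next, and their WT ranges overlapped. Cry2 (13.4) and Per3 (12.9) overlapped as well, ahead of Clock (4.38). Cry1 (2.56) and Npas2 (1.92) overlapped, and Arntl was lowest at 0.301. Every other pair of neighbors in this order had WT ranges that did not overlap. With the longest transcript as the length, Per1 (27.3) stood before Per2 (27.2), and Per2 and Cry2 overlapped too.

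In KO-1 the order was different. Nr1d1 (39.4) and Nr1d2 (16.8) were still first, Npas2 (13.8) came next, Arntl (7.10) stood close to Per2 (7.59), and Per3 (2.08) was last. With the longest transcript as the length, Arntl (13.4) stood above Per2 (7.62) in KO-1, and Cry1 (3.21) was last after Per3 (3.33). In KO-2, Nr1d1 stood at 152.2 and Nr1d2 at 30.4, and Clock (7.15), Npas2 (6.94), Cry2 (6.76), Per2 (6.10) and Per1 (5.67) lay within a narrow band. Arntl was last but for Cry1 in KO-2, at 1.77 against 1.14.

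Summed by role, the Per genes together were 52.5 to 69.9 CPM per kilobase in WT, 21.2 in KO-1 and 15.9 in KO-2. The Cry genes together were 14.3 to 17.6 in WT, 9.36 in KO-1 and 7.91 in KO-2. Clock and Npas2, the alternative partners of BMAL1, together were 5.75 to 6.91 in WT, 23.5 in KO-1 and 14.1 in KO-2. Both sums of repressors were thus lower, and the sum of the partners of BMAL1 higher, in both KO libraries. Cry2 made up 79.8% to 89.8% of the Cry sum in WT. Cry1 alone was 1.66 to 3.55 in WT, 2.90 in KO-1 and 1.14 in KO-2, so KO-1 fell within its WT range. The REV-ERB genes together were 182.2 to 205.1 in WT, 56.2 in KO-1 and 182.6 in KO-2, so that KO-2 fell within the WT range. The share of Npas2 in the sum of Clock and Npas2 went from 27.1% to 35.0% in WT to 58.8% in KO-1 and 49.2% in KO-2. The share of Per3 in the Per sum was 17.9% to 22.2% in WT, 9.78% in KO-1 and 26.2% in KO-2, below WT in one KO library and above it in the other.

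**Figure D4:**
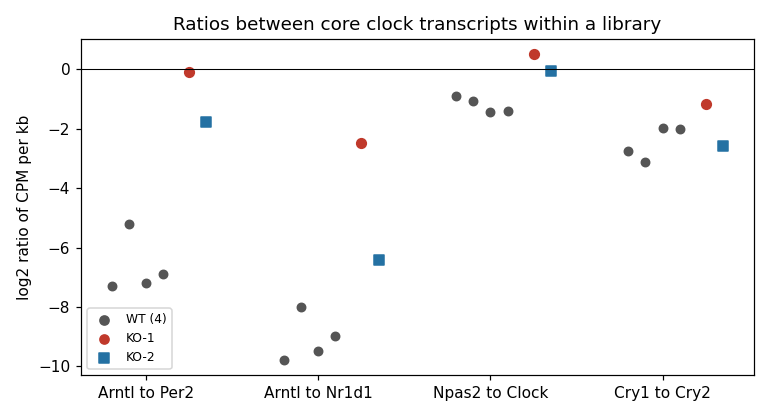
Log2 ratio of 2 core clock transcripts within each library, per length; grey points are the 4 WT libraries, red circles KO-1 and blue squares KO-2. The ratio of Arntl to Per2 runs from -7.29 to -5.19 in WT and is -0.10 in KO-1 and -1.78 in KO-2.

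Ratios within a library do not depend on the scaling between libraries. The level of Arntl per length was 0.64%, 2.73%, 0.69% and 0.85% of that of Per2 in WT-1 to WT-4, 93.6% in KO-1 and 29.1% in KO-2. In KO-1 the activator and the repressor transcript were thus nearly level, and with the longest transcripts as lengths Arntl stood at 175.5% of Per2. The level of Arntl was 0.11% to 0.39% of that of Nr1d1 in WT, 18.0% in KO-1 and 1.16% in KO-2. This ratio lay above WT in both KO libraries, also in KO-2, where Nr1d1 was as high as in WT. Npas2 stood at 37.3% to 53.8% of Clock in WT, 142.9% in KO-1 and 96.9% in KO-2. Cry1 stood at 11.4% to 25.2% of Cry2 in WT, 45.0% in KO-1 and 16.9% in KO-2, and this ratio overlapped between the groups.

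Other genes of the clock were taken from 4 lists of 12 genes, and 9 of these 48 were called, 2 higher and 7 lower, with a median log2 fold change of -0.01. In all genes tested 5.64% were called. These lists were written with earlier results of these data known.

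The accessory loops hold the transcription factors that link the core genes to each other and to outputs, and 5 of their 12 genes were called, all lower in KO. Dbp, a direct target of BMAL1 that acts on D-boxes, had normalized counts of 8811 to 10568 in WT, 283.0 in KO-1 and 2870 in KO-2. Its log2 fold change was -2.62 (SE 0.89, DESeq2 adjusted p = 0.0337), but edgeR did not call it, nor did DESeq2 once any 1 WT library was left out. Ciart, a further repressor of CLOCK and BMAL1, had 366.4 to 641.1 in WT, 7.59 in KO-1 and 76.2 in KO-2, with a log2 fold change of -3.55 (SE 0.90, DESeq2 adjusted p = 0.00191). For both genes KO-1 was the lower library, as for Per3 and Nr1d1. The D-box factors Tef (log2 fold change -1.49, SE 0.27, DESeq2 adjusted p = 2.73e-06) and Hlf (-1.17, SE 0.25, adjusted p = 0.00016) were lower. Bhlhe41, which represses E-box genes, was lower too (-1.47, SE 0.34, DESeq2 adjusted p = 0.000415). Hlf and Bhlhe41 were not called without KO-1, nor Bhlhe41 by edgeR. With the replicate number as a block, Dbp and Ciart were not called. Nfil3, the D-box repressor, had 107.6 to 349.8 in WT, 1103 in KO-1 and 243.4 in KO-2, so only KO-1 stood out and the difference did not pass the test (DESeq2 adjusted p = 0.156). It was called higher in 4 of 13 alternatives (with the filter on low counts, with the replicate block, without WT-4 and without KO-2). Rora, an activator at ROR elements, had 2579 to 3230 in WT, 2776 in KO-1 and 2490 in KO-2 (DESeq2 adjusted p = 0.753). Rorb had at most 3 counts in every library.

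**Figure D5:**
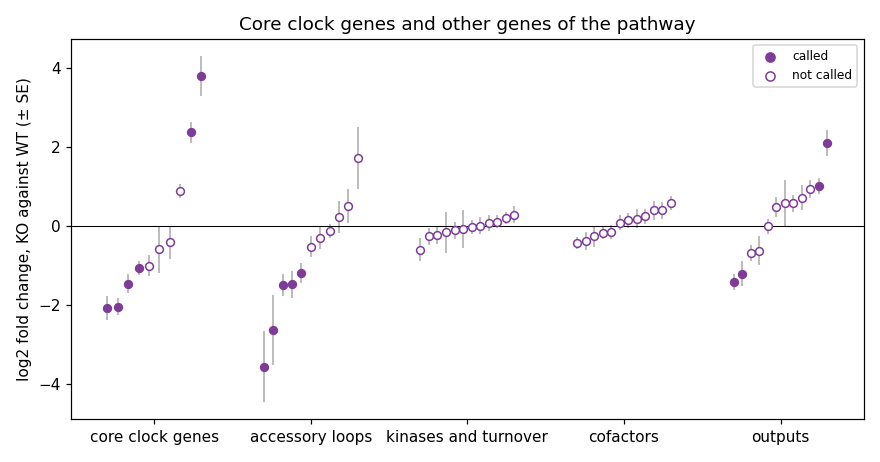
Log2 fold change of KO against WT with its standard error for the 10 core clock genes and for the genes of 4 lists of 12 with an adjusted p, each group sorted by value; filled points were called. Kinases and cofactors lie between -0.59 and 0.60, while the core genes run from -2.06 to 3.81.

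The kinases and ubiquitin ligases that set the stability of PER and CRY proteins had 0 of 12 genes called by DESeq2 and 0 by edgeR, with 1 at an unadjusted p under 0.05 and a median log2 fold change of -0.04. Csnk1d, a kinase of PER proteins, had 2783 to 3632 normalized counts in WT, 3550 in KO-1 and 2162 in KO-2. Gsk3b had 2590 to 3270 in WT, 3069 in KO-1 and 3292 in KO-2. Usp2, a deubiquitinase under clock control, had 165.9 to 480.3 in WT, 542.5 in KO-1 and 131.5 in KO-2, on opposite sides of WT, and was called without KO-1.

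Cofactors of the loop, such as corepressors and histone-modifying enzymes, had 0 of 12 called by DESeq2 and 0 by edgeR, 2 at an unadjusted p under 0.05 and a median of 0.13. Sfpq, an RNA-binding partner of PER, passed the adjusted p without reaching 2-fold and was higher (0.60, DESeq2 adjusted p = 0.0095). Ncor1, through which REV-ERB proteins repress, had 4823 to 5815 in WT, 5277 in KO-1 and 7360 in KO-2 (DESeq2 adjusted p = 0.478).

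Of 12 genes known as outputs, 4 were called, 2 in each direction. Pdk4, a kinase that limits glucose oxidation, was 4.29-fold higher (SE 0.33 on the log2 scale, DESeq2 adjusted p = 1.75e-08), with 426.6 to 543.0 in WT, 1088 in KO-1 and 3050 in KO-2. Pdk4 is also highly expressed in fat and heart, whose summed markers were highest in KO-2 and KO-1 respectively, and the part of those tissues was not tested. Cdkn1a, the cell cycle inhibitor p21, was higher (1.03, SE 0.20, DESeq2 adjusted p = 2.22e-05). Tspan4, a tetraspanin, was lower (-1.41, SE 0.20, DESeq2 adjusted p = 5.09e-10), and so was Wee1, a kinase that delays entry into mitosis (-1.20, SE 0.31, DESeq2 adjusted p = 0.00267). Wee1 was not called by edgeR or without KO-2, and Cdkn1a was not called without KO-1 or without WT-4. Neither was called with the replicate block. Nampt, which makes a precursor of NAD, had 1251 to 1882 in WT, 2292 in KO-1 and 2350 in KO-2, and passed neither the adjusted p (0.0542 in DESeq2) nor the 2-fold limit (log2 fold change 0.58). Dtx4, a ubiquitin ligase, passed the adjusted p (0.00062 in DESeq2) and stayed under 2-fold (0.95, SE 0.22). Klf9 did so in the lower direction (-0.67, SE 0.21, DESeq2 adjusted p = 0.0194), with 9314 to 11887 in WT, 5232 in KO-1 and 8061 in KO-2.

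Immediate early genes and glucocorticoid targets respond to signals, such as cAMP and the glucocorticoid receptor, that also act on Per1. Of 13 immediate early genes 2 were called, Fosb (log2 fold change -1.62, DESeq2 adjusted p = 9.48e-07) and Nr4a1 (-1.55, adjusted p = 2.02e-08), both lower, beside 2.1% called lower and 5.64% called in all genes tested, and the median of the list was -0.65. Of 12 glucocorticoid-responsive genes, which include Per1 itself, 3 were called: Per1 lower, and Cdkn1a and Pdk4 higher, beside the same 5.64%, with a median of -0.59. Fkbp5, a standard glucocorticoid target, had 572.9 to 1202 in WT, 563.0 in KO-1 and 426.5 in KO-2 and passed the adjusted p (0.0275 in DESeq2) without reaching 2-fold. The part of these signals in the Per values was not tested.

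The genes whose pattern over the 6 libraries was most like that of Arntl were ranked by the root mean square difference of log2 normalized counts, each less its WT mean, among 11310 genes with a mean count of at least 100. The closest were Kcnd3, a potassium channel (0.755), Gm10093 (0.802), Gm12504 (0.823), Thbs1, which encodes thrombospondin (0.874), Srpx (0.971) and Cd36, a fatty acid receptor (1.04). Among the core genes, Npas2 was as near (0.958) and Clock less so (1.74). Gm10093 and Gm12504, both annotated as processed pseudogenes, had WT means of 15.6 and 38.8. Like Arntl, they reached a mean count of 100 only through the KO libraries. With the sign turned, the closest included Samd8 (0.749), Mylk2, a myosin light chain kinase (0.782), Smim5 (0.836), Rab6b (0.892) and Gm12992 (0.907). Per3 was slightly farther than these (0.952), followed among the core genes by Per2 (1.18), Per1 (1.57) and Nr1d2 (1.61). Gm12992, at 22.8 in KO-1 and 18.4 in KO-2, reached a mean count of 100 only through the WT libraries. The distances were taken over all 6 libraries, including the WT libraries, in which Arntl had few reads. The ranking is therefore a description of 6 libraries.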

How the data were processed

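Bulk RNA-seq of thoracic aorta from 4 WT and 2 KO mice was compared. Per the methods, reads were trimmed (Trim Galore) and aligned to GRCm38 (HISAT2) by the authors, and gene expression was estimated by StringTie with GENCODE M15 models. Gene-level estimated counts were deposited, as whole numbers with no depth scaling. CPM per kilobase was computed here from the deposited counts and exon lengths. How coverage became counts, and whether strand was used, is not given in the sources used here. Table columns carry codes that give a group but no sample, and library numbers come from those codes. The study counts mice as replicates.

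DESeq2 1.42.0 in R 4.3.3 fitted all genes (Wald test, group only), as in the study's methods, and genes with a Benjamini-Hochberg adjusted p under 0.05 and over 2-fold were called. Of 52636 genes, 17070 had an adjusted p. Division by DESeq2 size factors gave normalized counts, and single-library differences used a pseudocount of 0.5. A count of 3 or fewer was treated as at the limit of detection, for counting error only. Positions and exon lengths came from GENCODE M21 (52489 identifiers matched without version). The alternatives were edgeR 4.0.16 quasi-likelihood with and without its own expression filter, and DESeq2 with changed settings. These settings were a filter on low counts (at least 10 counts in 2 libraries), TMM factors, and total counts with and without mitochondrial genes. The others were the replicate number as a block and leaving out each library. The fits were tested on simulated data. Tables were made in Python 3.11.15 with pandas 2.3.3.

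The 10 core genes, the lists and the tests were chosen with earlier results of these data known. Genes were named by a rule: the 10 core genes, every called gene and up to 6 others by mean level of the 4 other clock lists, and the 6 genes outside all lists nearest to Arntl in pattern in each direction. Some genes that this rule selects are not reported here. Other named genes were chosen after their values were seen. Replicate pairs differed by more than sampling noise, so each library counts as 1.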

Additional observations from a re-analysis of the deposited data

Results flagged for a closer look

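In 3 of 82 sets of WT values checked, 1 WT library lay far from the other 3 (Dixon's criterion at 95%), and chance gives about 4.1. Per3 was 2096 in WT-2 and 3115 to 3292 in the other WT libraries. Tsc22d3, a glucocorticoid target, was 1925 in WT-4 and 1016 to 1021 in the others. Csnk1e, a kinase of PER proteins, was 1763 in WT-4 and 2262 to 2302 in the others. All are normalized counts.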

How the results depend on the processing

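Of the 10 core genes, 5 to 9 were called over the 13 alternatives, and Arntl, Npas2, Per1, Per2 and Per3 were called in all of them. The count over all genes was 962, and it was 633 with edgeR (621 shared, 98.1% of these and 64.6% of the 962), 561 with the replicate block (405 shared, 72.2% and 42.1%) and 636 to 1284 with 1 library left out (636 without KO-2, 456 shared, 71.7% and 47.4%, and 1284 without KO-1, 694 shared, 54.0% and 72.1%). Accessory loop calls went from 5 to 3 with edgeR, filtered or not, and were 3 to 6 with 1 library left out (3 without KO-1). Kinase calls were 0 to 1 with 1 library left out (1, Usp2, without KO-1). Under the replicate block, output calls went from 4 to 2 and immediate early calls from 2 to 4. Glucocorticoid calls were 2 to 6 with 1 library left out (6 without KO-2). The causes were not tested. Without KO-1, log2 fold changes were 2.60 for Arntl, 1.89 for Npas2, -1.96 for Per1 and -1.13 for Cry1. Without KO-2 they were -2.74 for Per3, -1.97 for Nr1d1 and -1.56 for Nr1d2. Deviations from the group means of libraries with the same number in WT and KO had r = -0.07 and 0.02 over genes. With 2 KO libraries these deviations mirror each other, so the check cannot tell whether same-numbered libraries shared a day or batch. Total counts without mitochondrial genes moved the median of all genes by 0.10, and less that shift Cry2 was -1.06. Among the 10 core genes, WT Arntl had the fewest counts (28 to 110).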
